A study of Rattus norvegicus with 43 samples.

Results

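The untreated livers and lungs of the study are described here against each other, so that the values show how the organs differ without any agent. The comparison holds 7 of the 43 arrays of the series, namely 4 arrays of liver, numbered 1 to 4 in the labels, and 3 of lung, numbered 2 to 4, chosen by their titles and not by any measured value. The rats were female Sprague-Dawley, a strain kept as an outbred stock, and were fed diet only over the 7 days in which other rats received Targretin at 60 mg per kg body weight, given by gavage, or 9-cis retinoic acid (9cRA) at 100 mg or 4-hydroxyphenylretinamide (4HPR) at 782 mg per kg diet, starting at 100 days of age. Total RNA of whole tissue was hybridised to Affymetrix rat arrays, 1 array per sample, and each transcript was read by a probe set, a group of short probes whose combined brightness is the MAS5 signal. Nothing in the labels states whether each array stands for an animal of its own, or whether a liver and a lung array of the same number share one, so the p-values measure only the spread between these arrays, which may be technical.

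The liver is the body's main source of plasma proteins and its site of urea, bile acid and glucose production, and most of its mass is a single cell type, the hepatocyte. The lung is built of thin alveolar epithelium, airways lined by secretory and ciliated cells, a dense capillary bed, smooth muscle, elastic matrix and resident immune cells. Type II alveolar cells make surfactant, the lipid and protein film that lowers surface tension, and type I cells form the gas exchange surface. In RNA of whole tissue, a lower level of a transcript may mean fewer cells of a type or less RNA per cell, and the arrays cannot tell these apart.

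Differences are liver minus lung on the scale log2(signal + 38.3), with the standard error from limma, and signals are given as deposited, in array order. The added constant makes a difference smaller where 1 organ has a signal near it, so folds of such genes are understated. A gene counts as higher or lower where limma's adjusted p (Benjamini-Hochberg over 5839 tested probe sets) was under 0.05, and a stricter rule also asked for a fold of at least 4. Each gene is read by its probe set with the highest average level over both organs.

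Before the results, 2 arrays need a remark. Lung array 2 carried more of the liver's transcripts than the other lung arrays did: over 184 probe sets that were high in liver and low in lung on the arrays of treated rats, its median signal was 3.95% of the untreated liver mean, against 0.528% and 0.654% on lung arrays 3 and 4. Of the 18 hepatocyte markers measured, 17 were higher on lung array 2 than on both others, and their summed signal in lung ran from 9902 to 47681. Log2 values of lung array 2 correlated with those of lung arrays 3 and 4 at 0.91 and 0.92, while those 2 arrays correlated at 0.978, over tested probe sets and as a description. Its part in the results was not tested. Leaving it out moved the difference of 34 of the 237 genes that are named below and passed by more than 1.5-fold, 32 of them higher in liver, and for these genes the difference without lung array 2 follows in square brackets. Leaving out lung array 3 or 4, which gives array 2 more weight, moved 17 and 8 of them by as much, all higher in liver and toward a smaller difference. Liver array 2 had the highest low-end signals, with a 10th percentile of 79.6 against 31.3 to 37.6 on the other liver arrays. Over 51 probe sets chosen as high in lung and low in liver on treated arrays, the untreated livers were alike, with medians of 2.2% to 2.54% of the lung mean. The choice itself asked for low signals in liver, so only the likeness of the livers is read from it.

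**Figure D1:**
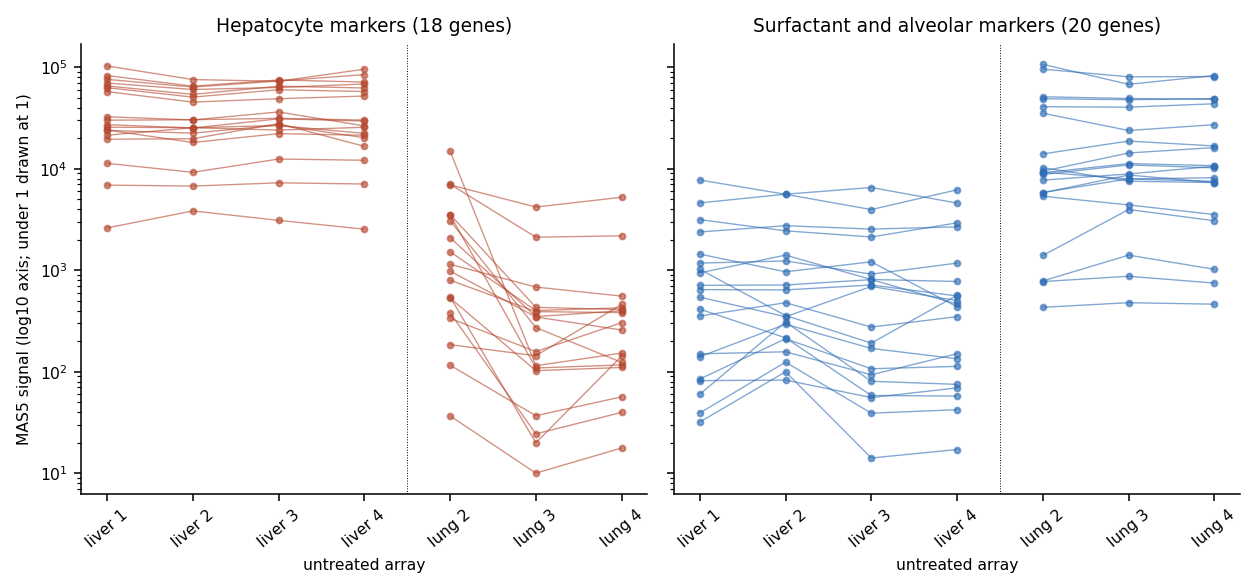
Signals of hepatocyte markers (left, one line per gene, 18 genes) and of surfactant and alveolar markers (right, 20 genes) on the 4 liver and 3 lung arrays of untreated rats, on a log10 axis of MAS5 signal. All but 1 of the hepatocyte lines (Hnf4a) are higher on lung array 2 than on lung arrays 3 and 4, and all but 1 of the alveolar lines (Igfbp2) are lower on the liver arrays than on the lung arrays.

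Most genes that could be tested differed between the organs. Of 3458 genes tested, 666 were higher in liver (19.3%) and 1591 were higher in lung (46%), and with the 4-fold rule 285 (8.24%) and 448 (13%) were. With median-centred arrays the shares of genes tested were 28.2% and 32%. The counts of each list below are to be read against these shares. The split depends on the scaling of the arrays. The authors scaled each array to 1 mean, but the median signal was 339.2 to 390.6 in liver and 470.5 to 514.2 in lung, and the median difference of all tested probe sets was -0.41. The share of called probe sets that were higher in liver was 31.3% as deposited, 48.2% when every array was centred on its median and 43.6% after quantile normalization. Among probe sets past the 4-fold rule it was 40.9%, 55% and 48.9%. Small differences are therefore read against a shift of about -0.41, and several lists are given with the counts of both scalings. Counts given only as deposited can also move with the scaling. Of the genes named below as passing, B2m, Cebpb, Cela1, Fasn, Foxa2, Myh3, Pfkl, Ptprf, Slco2a1 and Xdh, all on the lung side, did not pass with median-centred arrays, and of those named as not passing, Acaca, Cd36, Cfd, Cfp, Cyp2f4, Hadha, Hadhb, Insr, Irs1, Ivd, Nos3, Pcca, Pccb, Por, Rara and Sparc then passed toward liver. Averaging all probe sets of a gene ended the calls of Cebpa, Fasn, Irs2, Myh3 and Slco2a1 and gave one to Hadha and Por toward liver and to Rara, Sparc and Thbd toward lung.

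**Figure D2:**
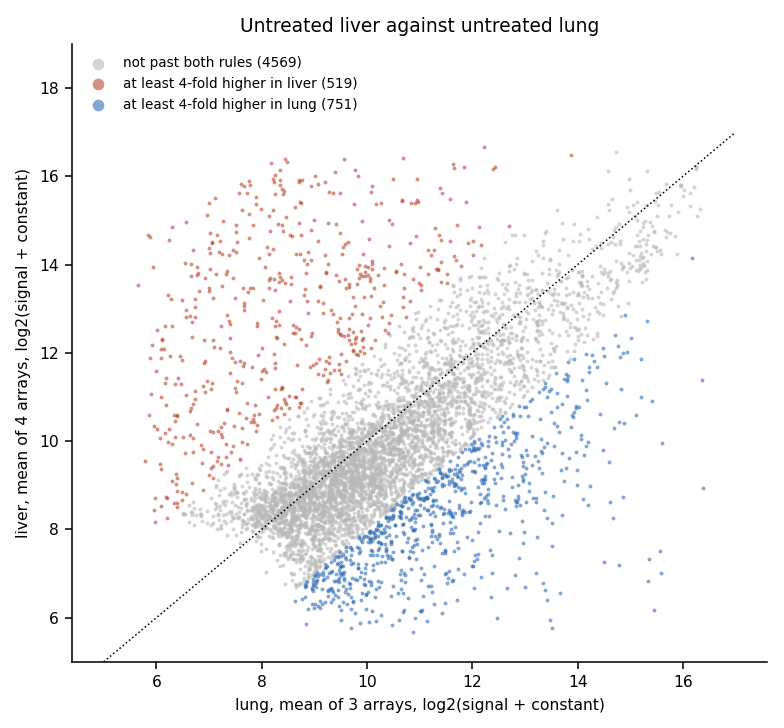
Mean log2(signal + 38.3) in untreated lung (x axis, 3 arrays) and untreated liver (y axis, 4 arrays) for the 5839 tested probe sets; the diagonal marks equal levels. Coloured points passed the adjusted p and the 4-fold rule, 519 higher in liver (8.89%) and 751 higher in lung (12.9%), and grey points did not.

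The 10 genes with the largest difference toward liver encode plasma proteins, metabolic enzymes, a transporter and a lipid carrier. Tdo2, the dioxygenase that opens the ring of tryptophan, gave signals of 25683, 25411, 24053 and 25647 on liver arrays 1 to 4 and 36.7, 10 and 17.7 on lung arrays 2 to 4, a difference of 8.75 ± 0.17 or 429-fold (adjusted p = 2.8e-09). All livers lay far above all lungs, whose signals were below the added constant, so the fold is understated. Mug1, a murinoglobulin that traps proteases in plasma, differed by 8.84 ± 0.19, with 31606, 22064, 30643 and 22065 in liver and 26.6, 13.6 and 17.6 in lung. Slc2a2, the glucose transporter of hepatocytes, differed by 7.88 ± 0.20, and Pck1, which commits oxaloacetate to glucose production, by 7.64 ± 0.26. Slc2a2 read 30.1, 4.2 and 5.1 in lung, below the added constant on all 3 arrays. For Fabp1, the liver fatty acid binding protein, the lung signals were 1654, 40.7 and 16 and the difference was 8.22 ± 0.98 [9.79]. Cyp2c7, a liver cytochrome P450, had lung signals of 5301, 1.5 and 1.4 and a difference of 8.11 ± 1.46 [10.46]. For both genes lung array 2 stood far above the other lungs and far below the livers. Apoh, a phospholipid binding plasma protein, Gc, the vitamin D binding protein, Hpd, an enzyme of tyrosine breakdown, and Ambp, the precursor of bikunin, completed the 10 genes with the largest difference, at 8.40 ± 0.67 [9.47], 7.79 ± 0.82 [9.10], 7.92 ± 0.81 [9.20] and 7.63 ± 0.80 [8.87].

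Toward lung, the largest difference was that of Defb4, a beta-defensin of epithelial defence, with 72, 169.9, 68.4 and 76 in liver and 64274, 41282 and 44375 in lung, a difference of -8.57 ± 0.27 or 379-fold (adjusted p = 1.9e-08). Surfactant genes followed, and with them Ager, the receptor for advanced glycation end products that marks type I cells (-8.02 ± 0.23), Tspan8, a tetraspanin of epithelia (-7.75 ± 0.26), Cxcl3, a chemokine for neutrophils (-7.52 ± 0.40), Pdpn, podoplanin (-7.11 ± 0.31), and Acta2, smooth muscle actin (-7.01 ± 0.31). Cxcl3 read 13, 93.2, 6.3 and 9.4 in liver, where array 2 was the highest, and 7528, 14200.4 and 13399.6 in lung.

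Plasma carriers and protease inhibitors were on the liver side almost throughout. Of 28 measured, 26 were higher in liver, 25 of them at least 4-fold, 0 were higher in lung, 1 did not pass and 1 was below the filter, with a median difference of 6.10, or 6.68 without lung array 2, against -0.28 over all genes measured. Albumin, Alb, gave 103130.0, 75743, 72847 and 95828 in liver and 14890.0, 115 and 152 in lung (difference 6.83 ± 1.34 [8.98]). Lung array 2 held far more of it than the other lungs, and every liver stayed above it. Transthyretin, Ttr, the carrier of thyroxine and of the retinol binding protein, gave 69937, 60444, 63261 and 68529 and 3542, 431 and 409 (6.17 ± 0.62 [7.16]). Pzp, a macroglobulin, differed by 7.49 ± 0.78 [8.66], the fetuin Ahsg by 7.16 ± 0.94 [8.68], and Serpina6, the corticosteroid binding globulin, by 6.61 ± 0.50 [7.29]. At the low end, ceruloplasmin, Cp, the copper carrier, still read 2619 ± 322 in lung and differed by 3.29 ± 0.12, and alpha-fetoprotein, Afp, of the foetal liver, differed by 1.41 ± 0.27. A2m, the macroglobulin of acute inflammation, read 1013 ± 95.1 in liver and 1107 ± 97.4 in lung (difference -0.12 ± 0.16, adjusted p = 0.52), and of its 6 probe sets 1 passed in each direction.

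The promoters of Alb, Fgb and Fabp1 are printed because they hold letters of hepatic factor sites, whose shares are given further down with the transcription factors. Each runs from 250 bases before to 50 bases after the start in the RefSeq annotation of GRCr8, 5′ to 3′ on the gene's strand, and capitals mark any of the motifs searched.
Alb: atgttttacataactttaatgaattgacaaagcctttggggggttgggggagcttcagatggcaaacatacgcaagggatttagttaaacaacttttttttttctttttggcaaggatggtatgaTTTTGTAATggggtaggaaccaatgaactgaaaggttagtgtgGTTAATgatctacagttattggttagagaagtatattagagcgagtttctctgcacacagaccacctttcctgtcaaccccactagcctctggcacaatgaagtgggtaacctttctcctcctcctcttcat
Fgb: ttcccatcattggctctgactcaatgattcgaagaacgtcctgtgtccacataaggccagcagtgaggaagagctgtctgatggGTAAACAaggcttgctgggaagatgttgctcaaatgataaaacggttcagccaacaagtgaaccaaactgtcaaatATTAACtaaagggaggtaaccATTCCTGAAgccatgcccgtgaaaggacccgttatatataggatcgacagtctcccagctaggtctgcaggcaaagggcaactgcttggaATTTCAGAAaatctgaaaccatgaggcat
Fabp1: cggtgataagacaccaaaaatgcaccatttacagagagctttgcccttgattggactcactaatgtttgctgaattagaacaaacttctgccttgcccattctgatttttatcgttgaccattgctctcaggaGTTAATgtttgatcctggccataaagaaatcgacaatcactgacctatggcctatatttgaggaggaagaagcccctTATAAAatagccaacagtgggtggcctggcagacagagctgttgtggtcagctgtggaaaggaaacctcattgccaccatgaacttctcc
In Alb (chr14:17906930-17907229, minus strand) the capitals are a C/EBP match and then the HNF1 letters GTTAAT. In Fgb (chr2:170700826-170701125, minus strand) they are a forkhead match, the HNF1 letters on the opposite strand, and C/EBP matches before and after the start. In Fabp1 (chr4:104749090-104749389, plus strand) they are the HNF1 letters and a TATA box.

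Coagulation and complement genes were mostly liver-sided, and those on the lung side are known from the cell surface or the vessel wall. Of 35 measured, 24 were higher in liver and 6 in lung, 4 did not pass and 1 was not tested, with a median of 2.28. Fgb, the fibrinogen beta chain, gave 30119, 30436, 31412 and 30202 in liver and 548, 19.9 and 142 in lung (7.38 ± 0.60 [8.22]), plasminogen, Plg, differed by 7.37 ± 0.18, prothrombin, F2, by 6.35 ± 0.44 [7.03] and the mannose binding lectin Mbl2 by 6.98 ± 0.45 [7.67]. C3, the hub of the complement cascade, read 55182 ± 6500.0 and 3189 ± 2470.0 (4.35 ± 0.39 [4.94]). Tissue factor, F3, which starts coagulation, read 56.3, 225, 130.3 and 49 in liver and 2867, 3546 and 3628 in lung (-4.61 ± 0.37, 24.3-fold). Cd55 and Cd59b, which shield cells from complement, differed by -4.86 ± 0.33 and -2.69 ± 0.12. The plasminogen activators Plat and Plau differed by -3.54 ± 0.26 and -1.52 ± 0.21, and Tfpi, the inhibitor of the tissue factor pathway, by -1.65 ± 0.31. The organs did not overlap for any of these 6 genes, as for 2301 of the 3458 genes tested. The endothelial genes Thbd and Vwf did not pass, at -0.21 ± 0.17 and 0.28 ± 0.37, nor did the complement genes Cfd and Cfp (0.22 ± 0.20 and 0.38 ± 0.24). Without lung array 2 Cfp passed toward liver at 0.70.

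Apolipoproteins were on the liver side and lipoprotein lipase on the lung side. Of 18 measured, 14 were higher in liver, 2 in lung and 2 did not pass (median 5.38). Apoa2 differed by 6.74 ± 0.81 [8.01], Apoc3 by 5.73 ± 0.54 [6.59] and Apob, of very low density lipoproteins, by 5.52 ± 0.39 [6.11]. Apoe, which macrophages also make, read 27197 ± 587 in lung and differed by 1.80 ± 0.12. Lipoprotein lipase, Lpl, gave 254, 417, 418 and 469.5 in liver and 8649, 8639 and 11313 in lung (-4.50 ± 0.22, 22.7-fold), and Vldlr, a receptor for very low density lipoprotein, differed by -1.96 ± 0.38. Hepatic lipase, Lipc, went the other way, with 5.64 ± 0.20.

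Cytochromes P450, the haem enzymes of drug and steroid oxidation, held members on both sides. Of 49 measured, 25 were higher in liver, 24 of them at least 4-fold, 5 were higher in lung, 10 did not pass and 9 were not tested (median 1.33, 1.63 without lung array 2). Cyp1a2, Cyp2c12 and Cyp2b3 were higher in liver by 6.29 ± 0.45 [6.95], 7.21 ± 1.08 [8.93] and 7.11 ± 0.30, and Cyp7a1, the rate-limiting enzyme of bile acid synthesis, by 5.39 ± 0.31. In lung, the probe set named Cyp2b2 gave 30029, 38573 and 45529.5, against 1703, 2059, 2258 and 2119.6 in liver (-4.19 ± 0.17, 18.2-fold). Cyp2b2 and the near-identical Cyp2b1 of lung can share these probes, so the transcript behind this value is uncertain. Cyp4b1, a P450 of airway and alveolar epithelium, gave 710.5, 715, 808 and 464 in liver and 7725, 8898 and 10586 in lung (-3.69 ± 0.21). Cyp26b1, which clears retinoic acid, differed by -2.90 ± 0.72 [-1.89], Cyp1b1 by -1.14 ± 0.26 and Cyp2b15 by -1.06 ± 0.14. Cyp2f4, known from club cells, did not pass at 0.14 ± 0.17, nor did Por, the reductase that feeds electrons to the P450s, at -0.01 ± 0.14 (4208 ± 548 in liver and 4214 ± 109.6 in lung). The female-predominant Cyp2c12 read 27242 ± 2540.0 in liver and the male-predominant Cyp2c11 read 456 ± 167, on separate probe sets. By the array's naming, 31 of the 49 probe sets can match more than 1 transcript, so closely related P450s may be mixed.

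Conjugating enzymes were mostly liver-sided. Of 45 detoxification genes measured, 27 were higher in liver, 6 in lung (3 with median-centred arrays), 10 did not pass and 2 were not tested (median 1.18). Among the largest differences were those of sulphotransferases and glucuronosyltransferases, with Sult2a2 at 7.29 ± 0.77 [8.43], Sult1b1 at 6.47 ± 0.70 [7.58], Ugt2b35 at 7.33 ± 0.69 [8.43] and Ugt2b15 at 6.96 ± 0.54 [7.79]. Gstp1, the pi class glutathione transferase, went toward lung, with 2364, 2442, 2610.5 and 1768 in liver and 14041, 8599.7 and 12579.8 in lung (-2.32 ± 0.20), and so did Gstm5 (-2.63 ± 0.39), while Gstm1 differed by 3.19 ± 0.16 toward liver. Fmo1, a flavin monooxygenase, read 3369 ± 814 in liver and 8212 ± 2270.0 in lung (-1.27 ± 0.25). Ces1d, a carboxylesterase, and Sult1a1, a phenol sulphotransferase, were high in both organs, at 10724 ± 719 and 11573 ± 3802 and at 21620.0 ± 6547 and 20020.0 ± 3591, and did not pass (-0.05 ± 0.22 and 0.08 ± 0.23). Without lung array 2 Ces1d passed toward lung at -0.36.

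Of 43 genes of the urea cycle and amino acid breakdown, 39 were higher in liver, 28 at least 4-fold, 0 were higher in lung, 3 did not pass and 1 was not tested (median 3.55). The urea cycle was on the liver side at each step measured. Cps1, its entry enzyme, gave 27205, 25222, 31053 and 29553 in liver and 981, 346 and 258 in lung (5.85 ± 0.36), Otc differed by 5.54 ± 0.24, Ass1 by 5.09 ± 0.19, Asl by 3.56 ± 0.17 and Arg1 by 4.87 ± 0.23. Tat and Hpd, of tyrosine breakdown, differed by 7.40 ± 0.55 [8.26] and 7.92 ± 0.81 [9.20], and Bhmt, which remethylates homocysteine, by 6.24 ± 0.64 [7.22]. Several enzymes of wide use differed less. Glud1, mitochondrial glutamate dehydrogenase, differed by 1.86 ± 0.11, the aspartate transaminases Got1 and Got2 by 1.67 ± 0.21 and 1.55 ± 0.17, and the leucine enzyme Ivd did not pass at 0.15 ± 0.16, nor did Pcca and Pccb of propionate breakdown (0.39 ± 0.21 and 0.49 ± 0.29), although Pccb passed without liver array 1 (0.70). Cdo1, which oxidises cysteine, was high in lung too (13129 ± 4586 against 39523 ± 9081 in liver, 1.62 ± 0.28).

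All 18 genes of hepatic glucose handling that passed, of 20 measured, were higher in liver, 13 at least 4-fold, and 2 did not pass (median 3.13). Fbp1, of glucose production, gave 33153, 31781, 32197 and 33672 in liver and 877, 199 and 585 in lung (5.99 ± 0.37). Pc, pyruvate carboxylase, differed by 3.05 ± 0.20, Khk, fructokinase, by 3.21 ± 0.18 and the glucagon receptor Gcgr by 4.48 ± 0.20. The insulin receptor Insr and the adaptor Irs1 did not pass (0.46 ± 0.27 and 0.49 ± 0.24), while the adaptor Irs2 was higher in liver by 2.27 ± 0.24.

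Some enzymes and carriers exist as a liver form and as other forms. Here a liver form is the member listed for liver. Not every one, such as Acaca, Car3 or the cytosolic superoxide dismutase, is particular to liver. In 18 families both kinds of form were measured. Of 18 liver forms 16 were higher in liver, 1 was higher in lung and 1 did not pass. Of 41 other forms 7 were higher in liver, 19 were higher in lung, 9 did not pass and 6 were not tested. Over all tested genes 46% were higher in lung and 19.3% in liver. With the 6 forms not tested left out, the share of other forms higher in lung was not far above that 46%. The share of liver forms higher in liver was well above the 19.3%. These forms were listed for their known place in liver and with earlier results of these data known. Their share is therefore a description and not a test. In 12 families the liver form was higher in liver while another form was higher in lung. Pyruvate kinase was such a case: Pklr gave 951, 1284, 1484 and 1042 in liver and 134, 70.7 and 74.7 in lung (3.24 ± 0.25), and Pkm gave 559.7, 851, 629 and 807 in liver and 8139.6, 8027 and 7776 in lung (-3.44 ± 0.17). Among glucose transporters, Slc2a2 was on the liver side and Slc2a1, the carrier of most tissues, on the lung side, with 159, 214, 142 and 248 in liver and 1362, 1953 and 1854 in lung (-2.95 ± 0.24). The bisphosphatases Fbp1 and Fbp2 differed by 5.99 ± 0.37 and -2.11 ± 0.26, the glycogen phosphorylase Pygl was 2-fold higher in liver, and Pygb differed by -2.74 ± 0.18. The methionine adenosyltransferases Mat1a and Mat2a differed by 4.62 ± 0.27 and -1.14 ± 0.23. Of the aquaporins, Aqp9, a glycerol channel, differed by 4.10 ± 0.16, and the water channels Aqp1 and Aqp5 by -3.52 ± 0.21 and -4.38 ± 0.19. The connexin Gjb1 differed by 4.08 ± 0.15, and Gja4 and Gja5, of vessels, by -3.18 ± 0.52 and -3.18 ± 0.14, although Gjb2 was on the liver side (2.82 ± 0.33). Pfkl, the liver phosphofructokinase, was instead higher in lung (-0.97 ± 0.25, and -0.56 with median-centred arrays). It gave 420.1, 300.3, 592 and 324 in liver and 684, 907 and 855 in lung. Acaca, listed as the liver acetyl-CoA carboxylase, did not pass (0.72 ± 0.42) except without liver array 4 (1.04). Besides Gjb2, the other forms that were higher in liver were the fatty acid binding proteins Fabp7, Fabp2, Fabp3 and Fabp6 (4.27 ± 0.33, 2.72 ± 0.34, 0.86 ± 0.30 and 0.46 ± 0.14, the last not passing after quantile normalization at 0.17) and the acyl-CoA synthetases Acsl4 and Acsl5 (1.04 ± 0.14 and 1.15 ± 0.13). Ak4, an adenylate kinase of a family with no liver form listed, was also higher in liver (5.03 ± 0.23). For Pfkp, the platelet form, the difference was -3.31 ± 0.17, and for Aldoa, the muscle aldolase, -1.93 ± 0.16.

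**Figure D3:**
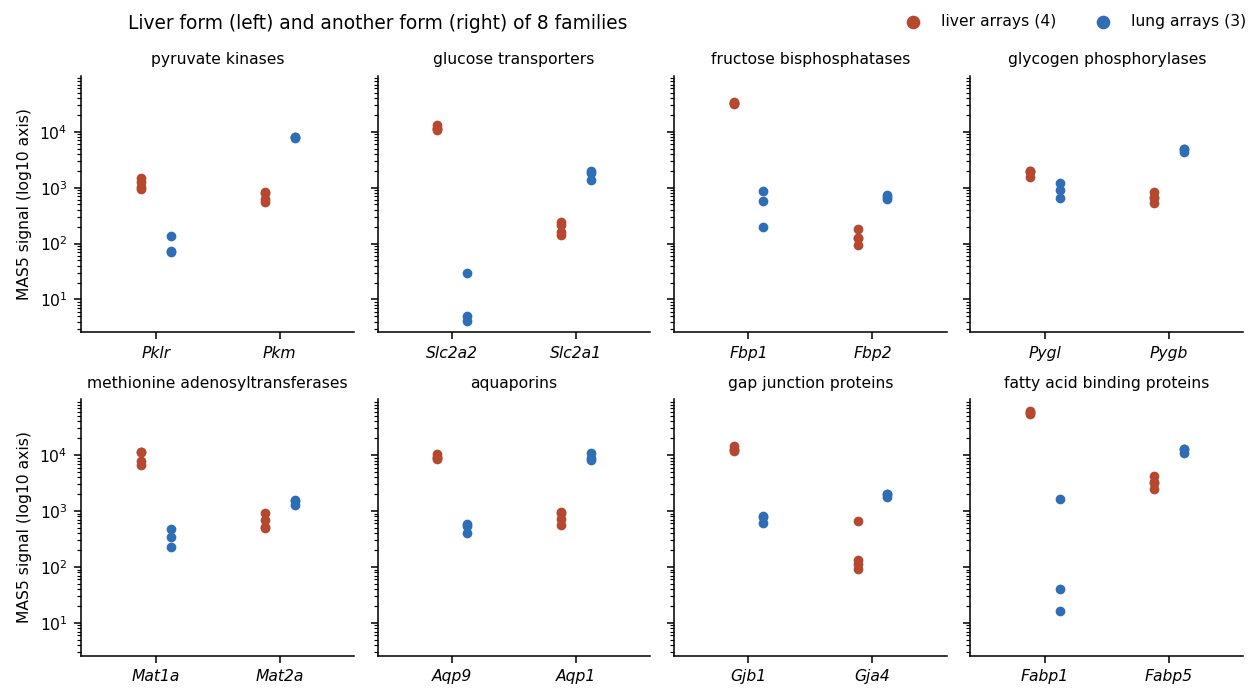
MAS5 signal (log10 axis) on each untreated array for a liver form and another form of 8 families, with liver arrays in one colour and lung arrays in the other, 1 point per array. In each pair the liver arrays lie above the lung arrays for the form on the left and below them for the form on the right. The pairs are a choice from the 12 families whose forms lay on opposite sides. Other members of some of these families, not drawn, were higher in liver, such as Gjb2 and Fabp7.

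Of 44 genes of fatty acid oxidation and peroxisomes, 31 were higher in liver, 2 in lung, 8 did not pass and 3 were not tested (median 1.26). Uox, urate oxidase, differed by 5.93 ± 0.25, Acox2, the branched-chain acyl-CoA oxidase, by 5.67 ± 0.18, Ehhadh, the bifunctional enzyme, by 4.64 ± 0.52 [5.39] and Bdh1, of ketone bodies, by 5.36 ± 0.37. Acadm, of medium-chain oxidation, differed by 1.89 ± 0.14, with 11183, 12468, 13281 and 10015 in liver and 2882, 3126 and 3378 in lung. The subunits of the trifunctional protein, Hadha and Hadhb, did not pass (0.31 ± 0.17 and 0.21 ± 0.15). The lung side held Pex2, a peroxisome assembly gene (-1.04 ± 0.19), and Xdh, xanthine dehydrogenase (-0.88 ± 0.26), whose call was lost without lung array 3 or 4 (-0.65 and -0.73), leaving 1 gene on the lung side.

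In lipid synthesis, cholesterol genes were liver-sided while fatty acid synthase and a desaturase were higher in lung. Of 26 genes of lipogenesis and cholesterol synthesis, 20 were higher in liver, 9 at least 4-fold, 2 were higher in lung, 3 did not pass and 1 was not tested (median 1.36). Fasn, fatty acid synthase, gave 2870.1, 3219, 3752 and 4489 in liver and 5615, 5474 and 6645 in lung (-0.73 ± 0.17, adjusted p = 0.0045), where the organs did not overlap. With median-centred arrays its difference was -0.33 (adjusted p = 0.15). The desaturase Scd2 gave 3801, 1279, 1717 and 1042 in liver and 11616, 19851 and 19764 in lung (-3.24 ± 0.40, 9.44-fold), whereas Scd, the liver desaturase, read 10142, 5955, 16240.3 and 8052 and 7335, 9348 and 9458 and did not pass (0.12 ± 0.29). The livers spread widely for Scd, and the organs overlapped. Srebf1, the regulator of lipogenic genes, was higher in liver by 1.87 ± 0.18, and of cholesterol synthesis Fdps differed by 2.65 ± 0.23, Nsdhl by 3.81 ± 0.14 and Sqle by 1.30 ± 0.23.

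Of 29 genes of bile acid synthesis and hepatic transport, 21 were higher in liver, 2 in lung, 5 did not pass and 1 was not tested (median 3.09). Slc10a1, which takes up bile acids from blood, differed by 6.89 ± 0.49 [7.49], Baat, which joins them to amino acids, by 6.66 ± 0.49 [7.30], and the canalicular exporters Abcc2 and Abcb11 by 6.19 ± 0.23 and 5.27 ± 0.47 [5.96]. Hsd11b1, which regenerates active glucocorticoid, was on the lung side, with 932, 2402, 2505 and 1108 in liver and 12367, 18668 and 16459 in lung (-3.27 ± 0.35, 9.65-fold). Slco2a1, the prostaglandin transporter, was also higher in lung on the probe set used (-0.92 ± 0.22), while its other probe set passed toward liver.

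Transcription factors known from liver were divided between the organs. Of 27 measured, 8 were higher in liver and 6 in lung (3 with median-centred arrays), against 19.3% and 46% of all tested genes. Another 8 did not pass and 5 were not tested (median 0.28). Hnf4a, a nuclear receptor that governs hepatocyte genes, gave 2613, 3842, 3102 and 2539 in liver and 185, 144 and 461 in lung (3.47 ± 0.33). Onecut1 (HNF6) differed by 4.11 ± 0.20, the bile acid receptor Nr1h4 by 4.25 ± 0.29, Foxa3 by 2.31 ± 0.30 and Cebpa by 1.70 ± 0.27. Foxa2, which lung epithelium also uses, was higher in lung (-0.58 ± 0.21), but its call was lost with median-centred arrays (-0.18, adjusted p = 0.52) and without liver array 2, 3 or 4 or lung array 3 or 4, where it ran from -0.60 to -0.42. Cebpd, of inflammation and alveolar cells, differed by -3.25 ± 0.24 and the thyroid hormone receptor Thra by -3.52 ± 0.26, with 147, 225, 95.2 and 139.9 in liver and 2549.5, 1865 and 1893 in lung. Cebpb was higher in lung as deposited (-0.66 ± 0.15) and did not pass with median-centred arrays (-0.26).

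Promoter letters were counted in RefSeq windows of GRCr8, 250 bases before to 50 after the start, on both strands. Of the 285 genes at least 4-fold higher in liver 236 had a window, and of the 448 higher in lung 354 had one. The HNF1 letters GTTAAT were in 13.6% of the liver-high windows, 3.67% of the lung-high ones, 5.08% of those of tested genes and 7.37% of all 27457 windows. An HNF4 site, CAAAGTCCA, was in 2.97%, 0%, 0.631% and 0.375%. Its 7 liver-high holders were Cps1, Baat, Agxt2, Kmo, Abcb4, Pdzk1 and Cyp3a23-3a1. The C/EBP site TTNNGNAAT was in 15.7%, 7.06%, 7.29% and 12.1%, and the forkhead site TGTTTAC in 5.08%, 1.13%, 2.63% and 3.76%. The letters CTCAAG, as in NKX2-1 sites, were in 14.8%, 15.5%, 13.5% and 15.6%, and the TATA box TATAAA in 16.9%, 12.7%, 9.71% and 14.3%. Base composition moved with these shares, since the median GC content was 53.3% in liver-high and 61.7% in lung-high windows, and its part was not tested. The full HNF1 palindrome, which holds GTTAAT, was in 1 of all windows and in 0 of the tested ones. A match is a description of letters and not of a bound site.

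Surfactant genes and markers of the alveolar epithelium were higher in lung with 1 exception. All 9 type II cell markers measured were higher in lung, 7 of them at least 4-fold, with a median of -4.98. Sftpc, the hydrophobic surfactant protein C, gave 1022, 358, 191 and 567 in liver and 95991, 80602 and 81087 in lung (-7.45 ± 0.43, 174-fold). Sftpa1, a collectin of surfactant, gave 414, 216, 58.3 and 57.5 and 48985, 47918 and 49266 (-8.08 ± 0.50), and Sftpd, another collectin, differed by -7.60 ± 0.40. Sftpb, needed to spread the film, gave 943, 1409, 810.4 and 775 and 51212, 49291 and 48236 (-5.64 ± 0.20). Liver array 1 had the highest liver signal of Sftpc, Sftpa1 and the club cell gene Scgb1a1, yet every liver stayed far under every lung. Ptprf and Ctsh, which liver also expresses, differed least (-0.79 ± 0.21 and -1.63 ± 0.17). Of 11 type I cell markers, 10 were higher in lung, 8 at least 4-fold, and Igfbp2 did not pass (-0.16 ± 0.38). Ager gave 84.7, 211, 107 and 113 in liver and 40895, 40478 and 43722 in lung, Pdpn differed by -7.11 ± 0.31 and Cav1, which shapes caveolae in type I and endothelial cells, by -6.56 ± 0.18.

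Airway markers were uneven. Of 14 club and ciliated cell markers measured, 2 were higher in lung, 2 in liver, 6 did not pass and 4 were not tested (median -0.05), and without lung array 2 4 were higher in lung. Scgb1a1, the club cell secretory protein, gave 325, 118, 48.4 and 75.1 in liver and 22699.9, 23428 and 23956 in lung (-7.25 ± 0.41). The liver-side members were Pon1, a serum paraoxonase made by liver (5.68 ± 0.28), and Gsta3, an alpha class glutathione transferase (2.85 ± 0.20). Foxj1, which drives cilia, was not tested and read 72.6 ± 50.9 in liver and 250.3 ± 54.7 in lung.

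The promoters of 3 of these genes are shown beside those of the liver genes, for the letters they hold.
Sftpa1: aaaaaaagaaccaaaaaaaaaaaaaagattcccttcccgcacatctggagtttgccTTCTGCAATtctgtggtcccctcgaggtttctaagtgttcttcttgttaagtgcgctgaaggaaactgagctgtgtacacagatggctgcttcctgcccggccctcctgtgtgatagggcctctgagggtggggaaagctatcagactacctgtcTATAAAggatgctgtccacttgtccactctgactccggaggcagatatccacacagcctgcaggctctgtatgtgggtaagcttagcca
Sftpb: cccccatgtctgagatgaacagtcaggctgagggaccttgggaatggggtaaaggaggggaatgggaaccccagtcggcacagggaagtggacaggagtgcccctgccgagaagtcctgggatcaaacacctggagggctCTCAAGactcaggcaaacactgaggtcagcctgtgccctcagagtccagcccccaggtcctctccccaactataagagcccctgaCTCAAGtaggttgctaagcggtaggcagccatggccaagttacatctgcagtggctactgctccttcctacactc
Scgb1a1: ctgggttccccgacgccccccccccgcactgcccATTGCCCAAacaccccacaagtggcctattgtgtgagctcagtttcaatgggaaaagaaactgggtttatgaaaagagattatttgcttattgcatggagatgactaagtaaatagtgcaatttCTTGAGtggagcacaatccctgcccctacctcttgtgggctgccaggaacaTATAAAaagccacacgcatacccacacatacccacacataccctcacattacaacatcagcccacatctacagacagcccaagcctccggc
In Sftpb (chr4:105917338-105917637, plus strand) the capitals are the NKX2-1 letters in 2 places, and in Scgb1a1 (chr1:215409637-215409936, minus strand) they are a C/EBP match and the NKX2-1 letters, both on the opposite strand, and a TATA box. In Sftpa1 (chr16:17042014-17042313, plus strand) they are a C/EBP match and a TATA box. The HNF1 letters were in none of these 3 windows.

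Of 21 transcription factors known from lung or vessels, 13 were higher in lung, 0 in liver, 3 did not pass and 5 were not tested (median -1.50), and with median-centred arrays 10 were higher in lung and 3 in liver. Nkx2-1, the factor that directs lung epithelial identity and surfactant genes, gave 150.0, 157, 93.2 and 150.4 in liver and 5363, 4402 and 3539 in lung (-4.67 ± 0.22). Tcf21, of lung fibroblasts, differed by -4.97 ± 0.21, Klf4 by -3.91 ± 0.23, and Id1, an inhibitor of helix-loop-helix factors, by -4.05 ± 0.24. Leaving out lung array 2 or 3 added 1 factor to the liver side. The shares over all tested genes were 46% toward lung and 19.3% toward liver.

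Of 23 endothelial markers, 15 were higher in lung, 11 at least 4-fold, and 1 in liver, against 46% and 19.3% of all tested genes. Another 4 did not pass and 3 were not tested (median -2.22). Ace, the angiotensin converting enzyme of lung capillaries, gave 267, 284, 398 and 311 in liver and 11888, 9939.9 and 10002 in lung (-4.92 ± 0.17, 30.3-fold). Kdr, the main receptor for Vegfa, differed by -2.38 ± 0.42 [-1.75], Pecam1 by -1.86 ± 0.18, Acvrl1, a receptor for bone morphogenetic proteins, by -4.14 ± 0.27, and Car4, the carbonic anhydrase of the capillary surface, by -3.36 ± 0.28. Selp, P-selectin, was on the liver side (0.99 ± 0.21), and Nos3, Vwf, Thbd and Cd36 did not pass.

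Signals that act on vessels and airways had members on both sides. Of 62 measured, 22 were higher in lung (15 with median-centred arrays), 8 in liver (11), 15 did not pass and 17 were not tested (median -0.43). The share higher in lung, of those tested, was near the 46% of all genes. Of the leukotriene pathway, Alox5 differed by -2.99 ± 0.28, its activating protein Alox5ap by -2.77 ± 0.24 and Lta4h, leukotriene A4 hydrolase, was 7.99-fold higher in lung. Both subunits of the nitric oxide receptor, Gucy1a1 and Gucy1b1, were higher in lung (-2.39 ± 0.21 and -2.67 ± 0.33), as were Edn1, endothelin (-3.38 ± 0.37), and Hpgd, which degrades prostaglandins (-3.02 ± 0.40). The renin-angiotensin genes lay on opposite sides. Agt, angiotensinogen, gave 12194, 13949, 14885 and 9700.0 in liver and 883, 543 and 614 in lung (4.16 ± 0.21), the receptor Agtr1a differed by 1.35 ± 0.17, and Ace lay on the lung side. Of the other liver-sided receptors, Avpr1a for vasopressin differed by 2.92 ± 0.22 and Adra1b for noradrenaline by 2.34 ± 0.15.

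Smooth muscle and matrix genes were mostly higher in lung. Of 20 smooth muscle and pericyte markers, 15 were higher in lung, 11 at least 4-fold, 2 in liver, 1 did not pass and 2 were not tested (median -2.25). Acta2 gave 20.5, 37.7, 96.1 and 47.5 in liver and 7610.1, 13624 and 12518 in lung, and Tagln, Myh11 and Vim differed by -4.17 ± 0.21, -3.42 ± 0.42 and -5.06 ± 0.16. On lung array 2 Acta2 was lower than on the others. Of 49 matrix genes, 33 were higher in lung, 23 at least 4-fold, 3 in liver, 3 did not pass and 10 were not tested (median -1.34). Postn, periostin, differed by -6.47 ± 0.29, Col1a1 by -4.22 ± 0.17, Eln, elastin, by -2.69 ± 0.23, and Mgp, matrix Gla protein, gave 1634, 1589.8, 2237 and 2205 in liver and 33411, 49560.5 and 49726 in lung (-4.50 ± 0.20). The liver-side members were the plasma proteins Vtn, vitronectin (4.78 ± 0.15), and Fn1, fibronectin (1.18 ± 0.10), and P4hb, a protein disulphide isomerase (0.96 ± 0.12). Sparc, at 10440.0 ± 1837 in liver and 9630.0 ± 767 in lung, did not pass (0.10 ± 0.15).

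Of 36 genes of epithelial water and ion transport, 16 were higher in lung, 4 in liver, 8 did not pass and 8 were not tested (median -0.54). With median-centred arrays 11 were higher in lung and 6 in liver. Over all tested genes 46% were higher in lung and 19.3% in liver, so the list as a whole was not far from these shares. All 3 subunits of the epithelial sodium channel were on the lung side, Scnn1a by -4.77 ± 0.21, Scnn1b by -2.70 ± 0.27 and Scnn1g by -3.96 ± 0.36. Scnn1a gave 303, 476, 450.2 and 378 in liver and 9286, 14739 and 12169.9 in lung. Atp1b1, a subunit of the sodium pump, differed by -3.25 ± 0.20, with 2223, 2009.6, 1675 and 1806 in liver and 13085, 21394 and 22685 in lung, and Slc12a2, a sodium-potassium-chloride carrier, by -3.31 ± 0.27. The liver-side members were the channels Aqp8 (4.10 ± 0.40) and Aqp9, Slc4a4, a sodium bicarbonate carrier (1.58 ± 0.37), and Car3, a carbonic anhydrase (0.81 ± 0.28), whose call was lost without liver array 1 or 4 or lung array 2 or 4 (0.61 to 0.86).

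**Figure D4:**
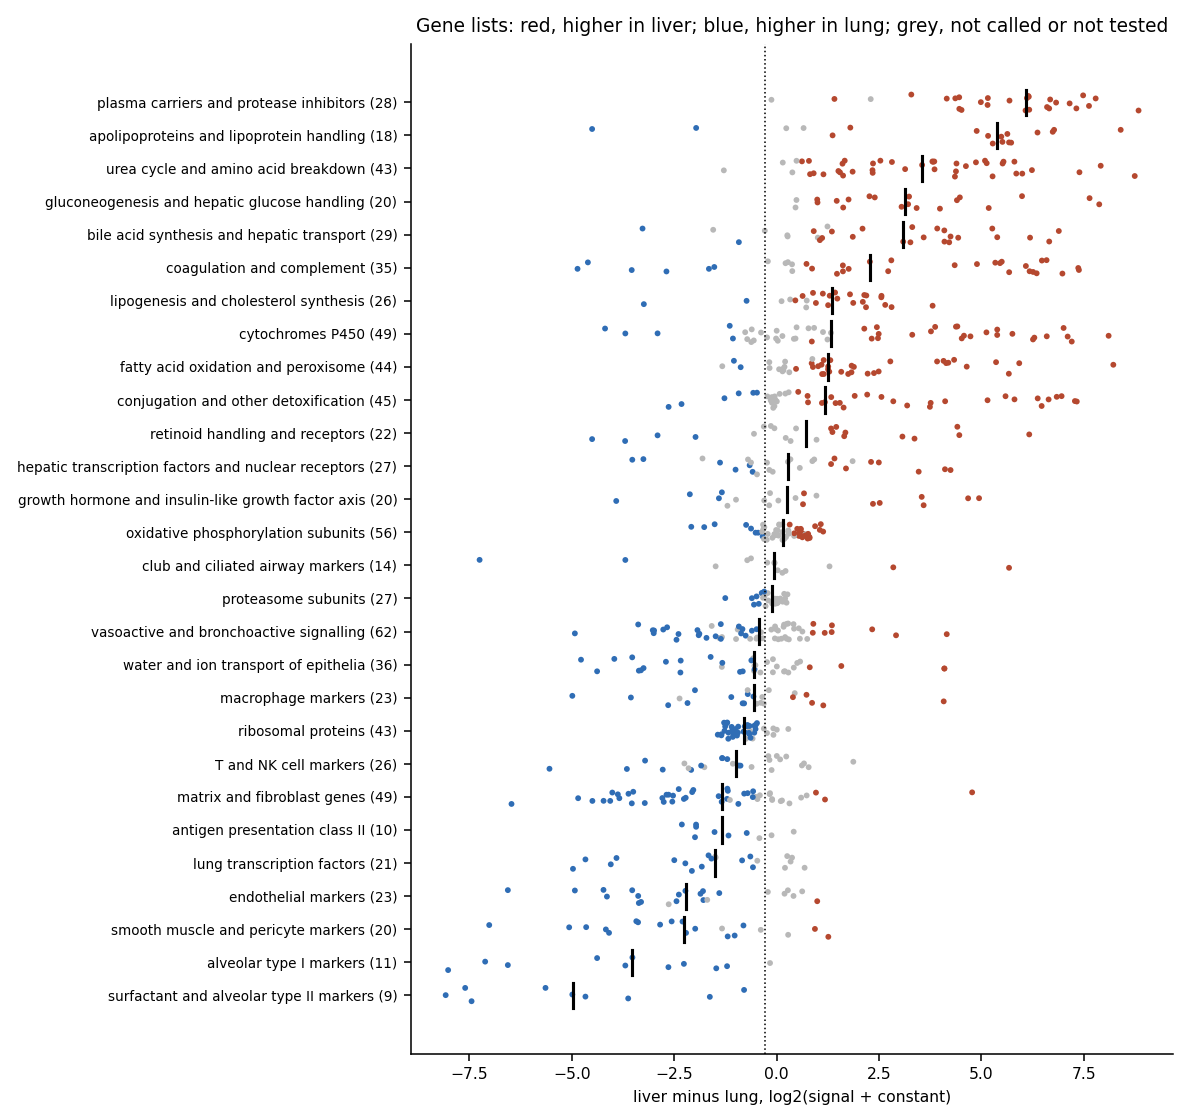
Liver minus lung difference, log2(signal + 38.3), of every measured member of 28 gene lists (one point per gene, grey where the gene did not pass or was not tested) with the list median as a bar; the dotted line is the median over all genes measured, -0.28. Lists of hepatic metabolism and plasma proteins lie to the right and lists of alveolar, vascular, muscle and matrix genes to the left.

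Immune cell markers were uneven, and macrophage markers lay on both sides. Against 46% of all tested genes higher in lung and 19.3% higher in liver, of 23 macrophage markers, 10 were higher in lung (6 with median-centred arrays), 5 in liver (5), 2 did not pass and 6 were not tested (median -0.56). Lyz2, lysozyme of macrophages and type II cells, gave 3148, 2445, 2127 and 2930.5 in liver and 107053, 67976 and 83006 in lung (-4.99 ± 0.19), and Lgals3, galectin-3, differed by -3.56 ± 0.17. Clec4f, a lectin of Kupffer cells, went toward liver with 5989, 4925, 5604 and 4573 and 336, 234 and 259 (4.08 ± 0.17). The complement subunits C1qb and C1qc, the Fc receptor Fcgr2b and the endotoxin receptor Cd14 were also liver-sided (0.87 ± 0.18, 0.73 ± 0.14, 1.14 ± 0.17 and 0.40 ± 0.14). The call of Cd14 was lost without liver array 1 or 3 or lung array 3 or 4 (0.34 to 0.41) and in a fit that also held mammary gland. Of 10 class II genes, 7 were higher in lung (5 with median-centred arrays) and 0 in liver, with 1 not passing and 2 not tested. The invariant chain Cd74 gave 5102, 5907, 5868 and 4666 in liver and 36236, 22941 and 23020.3 in lung (-2.31 ± 0.18), and lung array 2 was the highest. Class I genes and their peptide supply were closer. Of 14, 9 were higher in lung (6 with median-centred arrays), 1 in liver (2) and 4 did not pass. B2m was at -0.43 ± 0.10 and Tap1 at -1.30 ± 0.21.

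Of 26 T and NK cell markers, 11 were higher in lung and 0 in liver, 6 did not pass and 9 were not tested (median -0.99). With median-centred arrays 9 were higher in lung and 1 in liver. Over all tested genes 46% were higher in lung and 19.3% in liver. The chemokine Ccl5 gave 165, 195, 96.4 and 71.8 in liver and 8399, 7596 and 6769 in lung (-5.54 ± 0.27), and Cd3d, of the T cell receptor, differed by -2.08 ± 0.47 and Gzmk, a granzyme, by -3.65 ± 0.25. Among 14 mast cell markers 5 were higher in lung (3 with median-centred arrays), 1 did not pass and 8 were not tested, with Cpa3 at -1.88 ± 0.21. Of 7 neutrophil markers 3 were higher in lung and 4 were not tested: Lcn2, an iron-trapping lipocalin that epithelia also make (-4.30 ± 0.32), and S100a9 and S100a8, calcium binding proteins (-3.79 ± 0.28 and -2.59 ± 0.37). S100a9 read 48.9, 123, 59.3 and 49.6 in liver and 1397, 1495 and 1334 in lung. B cells were read by 3 markers, of which 2 were not tested and 1 did not pass, except without lung array 3, when it was higher in lung. Among T and NK cell markers, leaving out liver array 2 or lung array 2 added 1 to the liver side.

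Markers of other cells and tissues were checked beside these lists, and of these, bile duct and stellate cells belong to liver. With median-centred arrays the count toward liver rose from 1 to 5 for cardiac muscle markers and from 1 to 4 for fat cell markers. Of all tested genes 46% were higher in lung and 19.3% in liver, or 32% and 28.2% with median-centred arrays. Blood was in both organs, with Hbb, beta globin, at 52431, 37109, 65025 and 41694 in liver and 54692, 65442 and 78866 in lung (-0.45 ± 0.20, passing toward lung without liver array 3 or lung array 2 at -0.60 and -0.58), and the summed signal of 11 red cell and platelet markers ran from 61515 to 108059 in liver and from 92688 to 138726 in lung. Pf4, a platelet chemokine, was higher in lung (-2.23 ± 0.20). Of 24 cardiac muscle markers 3 were higher in lung and 1 in liver, 9 did not pass and 11 were not tested; the passing ones were Actc1 (-2.94 ± 0.34), Gja5 and Cox8b (-1.76 ± 0.43) toward lung and Fabp3 (0.86 ± 0.30) toward liver, while Myh6, Nppa and Myl3 were not tested. The call of Fabp3 was lost without liver array 3 or 4 or lung array 2 or 4 (0.60 to 0.92). Of 20 skeletal muscle markers 1 passed, Myh3 toward lung (-1.34 ± 0.51), a call lost without any 1 array other than liver array 3 or lung array 3 (-1.45 to -1.02). Of 12 fat cell markers 3 were higher in lung, namely Lpl, Pparg (-2.21 ± 0.69, -2.95 without liver array 2) and Lipe (-2.27 ± 0.28), with 5 not passing and 3 not tested, and Adrb3 was higher in liver (1.35 ± 0.40) but did not pass without lung array 4 (0.94). Of 24 pancreas, thymus and nerve markers 2 were higher in liver: the amylase gene Amy2a3 gave 3425, 2926, 5864 and 2803 in liver and 169, 133 and 159 in lung (4.24 ± 0.26), and the carboxypeptidase Cpa1 gave 4596, 2451, 2011 and 4947 and 229.5, 201 and 141 (3.87 ± 0.33). Other pancreatic genes did not follow, since Pnlip, pancreatic lipase, did not pass (0.35 ± 0.31), Prss1 was not tested and Cela1, an elastase, was higher in lung (-0.91 ± 0.26), a call lost without lung array 3 (-0.76). Of 7 bile duct markers 4 were higher in lung, among them Krt19 (-5.26 ± 0.16), 1 did not pass and 2 were not tested. Of 5 stellate cell markers 3 were higher in lung and 1 was not tested, with Reln, reelin, toward liver (1.61 ± 0.20). Genes of both lists are also known from lung epithelium and fibroblasts.

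The growth hormone axis had its endocrine part on the liver side. Of 20 genes, 8 were higher in liver, 4 in lung, 5 did not pass and 3 were not tested. Over all tested genes 19.3% were higher in liver and 46% in lung. Igf1 gave 17964, 12374, 12927 and 17368 in liver and 3704, 2258 and 2039 in lung (2.52 ± 0.23), its plasma partner Igfals differed by 3.54 ± 0.17, the receptors Ghr and Prlr by 3.59 ± 0.21 and 4.68 ± 0.52, and Igfbp1 by 4.95 ± 0.51. Igfbp6 and the clearance receptor Igf2r were lung-sided (-3.91 ± 0.48 and -2.12 ± 0.14). Insr and Igf1r did not pass, at 0.46 ± 0.27 and -0.99 ± 0.49, and Igf1r passed without lung array 3 (-1.36).

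Retinoid genes matter for a study of retinoids, and without any agent the pathway had members on both sides. Retinol travels in plasma on Rbp4 and Ttr, cells oxidise it to retinoic acid through dehydrogenases, Cyp26 enzymes clear the acid, and RAR and RXR receptors respond to it. Of 22 measured, 10 were higher in liver, 4 in lung, 5 did not pass and 3 were not tested, while over all tested genes 19.3% were higher in liver and 46% in lung. The plasma carriers were liver-sided, with Rbp4 at 4.46 ± 0.23. Retinol dehydrogenases of liver, Rdh7 and Adh4, differed by 3.07 ± 0.24 and 3.37 ± 0.37. On the lung side, besides Lpl, were retinaldehyde dehydrogenases and Cyp26b1. Aldh1a1 gave 6030.1, 5501, 4713 and 5161 in liver and 15318, 24379 and 25156 in lung (-1.98 ± 0.19), Aldh1a2 gave 30.5, 102, 34.6 and 48.3 and 1113, 1066 and 1143 (-3.70 ± 0.31), and Cyp26b1 gave 27.5, 130.4, 51.5 and 103 and 3280.3, 406 and 329 (-2.90 ± 0.72 [-1.89]). Lung array 2 held far more Cyp26b1 than the other lungs, and no liver overlapped a lung. Among the receptors, Rxra, Rxrg and Rarb were higher in liver (1.33 ± 0.29, 1.46 ± 0.25 and 1.36 ± 0.35), and Rara and Rxrb did not pass (0.23 ± 0.16 and -0.14 ± 0.23). Cyp2c22, a liver P450, read 11737 ± 1261 in liver and 949.9 ± 1200.0 in lung (4.42 ± 0.71 [5.47]).

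Machinery that all cells share mostly differed by small amounts, so its counts turn with the scaling. The shares over all tested genes were 46% toward lung and 19.3% toward liver, and 32% and 28.2% with median-centred arrays. Of 43 genes with a ribosomal protein symbol, which include the kinase Rps6kb1, 34 were higher in lung, 0 in liver, 8 did not pass and 1 was not tested, with a median of -0.79. With median-centred arrays 23 were higher in lung and 1 in liver. Rps16 gave 22015, 18531, 17049 and 19569.8 in liver and 56241, 42099.7 and 49478 in lung (-1.35 ± 0.14), and Rpl4 did not pass (-0.23 ± 0.12). Subunits of oxidative phosphorylation leaned the other way. Of 56, assembly factors included, 20 were higher in liver, 8 in lung, 26 did not pass and 2 were not tested (median 0.17), and 34 and 3 passed with median-centred arrays, while 5 were higher in lung without lung array 4. Atp5f1a, of the ATP synthase, differed by 1.14 ± 0.13, whereas Atp5if1, its inhibitor, and Cox7a2l differed by -2.08 ± 0.16 and -1.51 ± 0.17. Of 27 proteasome subunits 7 were higher in lung and 0 in liver, against 1 and 7 with median-centred arrays, and 3 to 7 were higher in lung when 1 array was left out, with the fewest without liver array 1 and 4 without lung array 3 or 4. The immunoproteasome subunit Psmb9 differed most (-1.25 ± 0.15). Of 9 genes in use as references, Actb, Tbp and Ywhaz were higher in lung (-1.02 ± 0.14, -1.12 ± 0.19 and -1.89 ± 0.13), Pgk1 was higher in liver (0.45 ± 0.17; not passing after quantile normalization, at 0.16, or without liver array 1, 2 or 4 or lung array 2 or 4, with 0.25 to 0.49), and the other 5 did not pass, among them Hprt1 (0.06 ± 0.20).

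The same organ difference was then read on the arrays of treated rats, which share no array with the untreated comparison. Of the 285 genes at least 4-fold higher in untreated liver, 95.4% were higher in liver also with Targretin, 98.6% with 9cRA and 97.5% with 4HPR, and 0 were lower with any agent. Of the 448 genes at least 4-fold higher in untreated lung the shares were 95.3%, 99.6% and 99.6%. Over all tested genes, 14.6%, 17.8% and 17.2% were higher in liver with the agents and 38.7%, 50% and 49.5% in lung. These shares turn with the scaling: with median-centred arrays 1265 probe sets were higher in liver and 1055 in lung with Targretin, against 885 and 2167 as deposited. With 9cRA they were 1767 and 1729, against 1081 and 2815, and with 4HPR 1964 and 1544, against 1037 and 2778. Of all 666 genes called higher in untreated liver, 438 passed the same way with every agent, as did 1134 of 1591 called higher in lung.

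**Figure D5:**
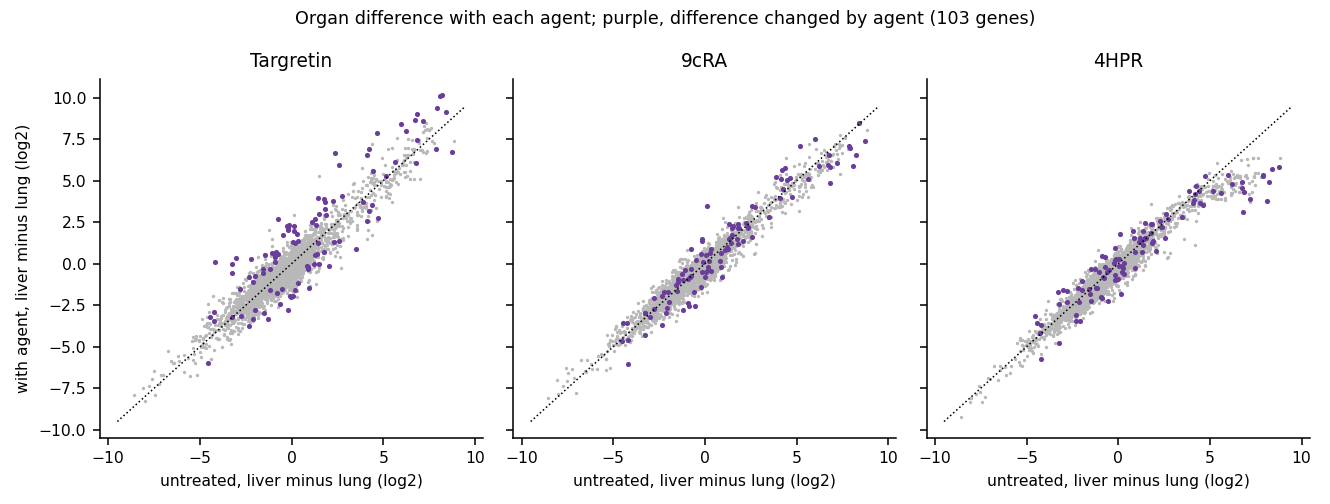
Liver minus lung difference, log2(signal + 38.3), of 3458 tested genes in untreated rats (x axis) and in rats given each agent (y axis, one panel per agent); the diagonal marks equal differences. Points are coloured where the change of the difference over the 4 treatments passed limma's F test, 103 genes (2.98%).

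Whether an agent changed the organ difference was tested for each probe set with limma's F test over all 29 liver and lung arrays, and 176 of 5839 passed (3.01%). Among genes named above, Fasn went from -0.73 ± 0.17 in untreated rats to 2.70 with Targretin, 0.87 with 9cRA and 0.41 with 4HPR (adjusted p = 2.5e-08). Scd2, at -3.24 ± 0.40 untreated, was at -0.02, -4.29 and -4.76 (adjusted p = 5.2e-06). The Cyp2b2 probe set, at -4.19 ± 0.17, was at 0.10, -4.62 and -3.70 (adjusted p = 3.3e-04), and Atp1b1, at -3.25 ± 0.20, was at -0.54, -2.94 and -2.43 (adjusted p = 5.2e-06). In each of these 4 genes the difference was highest, that is most toward liver, with Targretin. The agents' lung arrays also differed in how much of the liver's transcripts they held: the median level of the hepatocyte markers ran from 0.653% to 1.27% of the untreated liver mean with Targretin, from 1.9% to 2.86% with 9cRA and from 2.67% to 10.7% with 4HPR, against 0.796% to 4.82% untreated. Alb moved with it, at 9.04, 4.86 and 3.13 with the agents (adjusted p = 0.026), and the part of these transcripts in the count of 176 was not tested. That count was 274 without untreated lung array 2 and 117 and 115 without Targretin liver array 2 or 3. Surfactant genes were called higher in lung with every agent, with Sftpc at -7.89, -6.59 and -8.31.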

How the data were processed

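Total RNA of the organs was hybridised to Affymetrix rat arrays, 1 array per sample. The values used are MAS5 signal intensities on a linear scale, as the authors deposited them. MAS5 is named in the submitters' processing notes, and the build and probe annotation were not given in the sources used here. After trimming 2% of values at each end, the mean signal was 1502.14 to 1502.7 on all 7 arrays, so each array had been scaled to 1 mean. The table held 8799 probe sets, and 59 controls were left out. Of the other 8740, 7006 had 1 gene symbol in the platform annotation, 308 had several and 1426 had none, and only the first kind was named. Of the symbols, 6985 had a gene ID in the RefSeq table of GRCr8, which changed 0 names and gave the promoters.

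The 10th percentile of all non-control values of the series, 38.3, was added before log2. A probe set was tested if it exceeded its array's 40th percentile on at least 3 of the 7 arrays. limma 3.58.1 in R 4.3.3 (lmFit, eBayes with trend) gave differences, standard errors and Benjamini-Hochberg adjusted p-values over 5839 probe sets, fitted on the untreated liver and lung arrays alone. The treated comparisons used their own arrays and the same probe sets. The fit was tested on simulated data with 5839 probe sets, of which 66 changed 4-fold, 67 changed 2-fold and 67 changed 1.5-fold. It recovered 89.4%, 46.3% and 7.46% of these, and 1.04% of its calls were false. Far fewer probe sets changed there than the 3753 called between the untreated organs, and the simulated noise was independent between arrays. These rates therefore need not hold for the untreated comparison. The number of arrays limits the precision.

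Named genes were the 10 with the largest difference each way among called genes whose organs did not overlap, up to 4 called members each way and up to 2 not called from each list, called members lying on the side opposite to their list, marker and isozyme genes, and a few beside them that were chosen after their values were seen. The members and lists were chosen with earlier results of these data known. Alternatives were other scalings, pseudocount, filter, weights, samples in the fit, a 2-fold test threshold, array number as a block, averaged probe sets and each array left out.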

Additional observations from a re-analysis of the deposited data

Results flagged for a closer look

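Among the genes named above, 30 had an organ difference that changed over the 4 treatments by limma's F test. All 30 passed also without untreated lung array 2, and 15 passed without any 1 array: Aqp9, Atp1b1, Cela1, Cyp2b2, Ehhadh, Fabp1, Fasn, Fbp1, Fmo1, Hadhb, Rbp4, Scd, Scd2, Slc2a2 and Tdo2. The other 15 lost the call without at least 1 of the 29 arrays. Leaving out 1 array cannot test what a whole group of lung arrays shares, such as the liver transcripts on the 4HPR lungs. Without untreated lung array 2 the contrast with those lungs widened for genes such as Alb. Its adjusted p in limma's F test fell from 0.026 to 9.06e-08. Values follow as liver minus lung in untreated rats and with Targretin, 9cRA and 4HPR, with limma's adjusted p and, in square brackets, the untreated value without lung array 2 where it moved by more than 1.5-fold. The genes are grouped for reading only, and no group was tested.

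Of the genes of fatty acid handling, Fasn passed at 2.54e-08 and Scd2 at 5.23e-06, with the values given above. Ehhadh, the peroxisomal bifunctional enzyme, was at 4.64 [5.39], 7.88, 5.17 and 3.55 (adjusted p = 0.00177). Hadhb, of the trifunctional protein, was at 0.21, 1.26, 0.19 and -0.16 (adjusted p = 0.000874), and Acadm, of medium-chain oxidation, at 1.89, 2.95, 2.15 and 1.35 (adjusted p = 0.033). Scd, the liver desaturase that did not differ detectably between untreated organs, was at 2.27, 3.46 and 1.82 with the agents (adjusted p = 0.000144), so it was highest with 9cRA. Fabp1, the liver fatty acid binding protein, was at 8.22 [9.79], 10.15, 6.56 and 4.94 (adjusted p = 0.00817).

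Enzymes of oxidation moved in both directions. The difference of the Cyp2b2 probe set changed at 0.000334 and that of Aldh1a1, a retinaldehyde dehydrogenase, at 0.0264, the latter with values of -1.98, -0.72, -2.29 and -1.60. Fmo1 went the other way, with -1.27, -3.31, -0.61 and -0.34, and so was most lung-sided with Targretin (adjusted p = 3.31e-06). Hsd11b1, which regenerates active glucocorticoid, was at -3.27, -3.21, -2.94 and -1.70 (adjusted p = 0.0238).

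Carriers and receptors were also among them. Atp1b1, of the sodium pump, passed at 5.23e-06, and the glycerol channel Aqp9 was at 4.10, 2.55, 3.98 and 3.63 (adjusted p = 0.000671). Adra1b, a noradrenaline receptor, was at 2.34, 1.31, 2.16 and 2.20 (adjusted p = 0.0383), and Nr1h4, the bile acid receptor, at 4.25, 3.18, 4.53 and 4.69 (adjusted p = 0.0306). The glucose transporter Slc2a2 was at 7.88, 6.94, 7.11 and 5.28 (adjusted p = 0.0152). Fbp1, of glucose production, was at 5.99, 8.39, 7.48 and 5.36 (adjusted p = 0.00225), and Fbp2 at -2.11, -1.11, -2.95 and -2.33 (adjusted p = 0.0384).

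A further 9 genes known from hepatocytes had their smallest difference with 4HPR, while Nr1h4, Aqp9 and Adra1b had theirs with Targretin. Alb, at 6.83 [8.98] untreated and 9.04, 4.86 and 3.13 with the agents, passed at 0.026. The adjusted p was 0.035 for Apoa2, 0.0368 for Apoh, 0.0486 for Bhmt, 0.0231 for Cyp2c7, 0.0352 for Hpd, 0.0496 for Lipc, 0.0189 for Rbp4 and 0.0144 for Tdo2. Apoh, for example, was at 8.40 [9.47], 9.11, 8.46 and 5.71, and Rbp4 at 4.46, 5.61, 5.04 and 3.64. With 4HPR the median level of hepatocyte markers on the lung arrays was 2.67% to 10.7% of the untreated liver mean. On untreated lung arrays it was 0.796% to 4.82%, and the part of these transcripts in the values was not tested. Fabp1, Ehhadh, Acadm, Fbp1 and Slc2a2, listed above, also had their smallest difference with 4HPR, and the same limit holds for them.

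Another 3 genes belong to none of these groups. Cd74, the invariant chain of class II molecules, was at -2.31, -3.77, -3.67 and -3.47 (adjusted p = 0.0208), so the lung side was stronger with every agent. Igfbp2, an insulin-like growth factor binding protein, was at -0.16, 2.33, 1.37 and 0.94 (adjusted p = 0.0252). Cela1, an elastase, was at -0.91, 0.42, -2.35 and -2.03 (adjusted p = 0.00313).

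In 19 of the 272 named genes, or 7.0%, 1 of the 4 untreated livers stood apart from the other 3, its gap to the nearest being above Dixon's 95% critical value as a share of the whole range. Chance gives this in about 1 in 20 groups. Liver array 2, whose low-end signals were the highest, was the array apart in 11 of the 19. It was high for genes known from lung that were low in liver: Defb4 at 169.9, Pdpn at 124.1, Sftpd at 308.7, Tspan8 at 37.8, Cxcl3 at 93.2 and the vessel connexin Gja4 at 656.4. The other livers read 59.9 to 80.5 for Sftpd and 90.4 to 131.1 for Gja4. Sftpc, Sftpa1 and Scgb1a1, however, were highest on liver array 1. Over the 51 probe sets chosen as high in lung, liver array 2 had the lowest median of the livers, at 2.2% of the lung mean. It was also high for Pparg, a regulator of fat cells, at 730.2 against 49.7 to 82.7, and for Selp at 681.1, and low for C3 at 45598, Rxrb at 554.9 and Tfpi at 339.7.

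Liver array 3 was high for 2 pancreatic genes, Prss1, trypsinogen, at 1376 against 66.2 or less on the other livers, and Pnlip at 1302 against 545.2 to 630.2. It also had the highest Amy2a3 signal, though Cpa1 was lowest there. It was low for Lta4h at 1748, Nkx2-1 at 93.2 and Tdo2 at 24053. Liver array 1 was high for B2m at 30252 and low for Sult1b1 at 8956, and liver array 4 was high for Tbp at 550.4.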

How the results depend on the processing

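Several counts moved by more than 1.5 times. Asking for more than a 2-fold difference in the test itself (treat) left 609 probe sets higher in untreated liver and 1049 higher in lung, against 1176 and 2577. Scaling moved the treated comparisons. With Targretin, 2167 were higher in lung as deposited, 1388 after quantile normalization and 1055 with median-centred arrays, where 1265 were higher in liver (885 as deposited). With 9cRA, 1081 and 2815 became 1767 higher in liver and 1729 higher in lung with median-centred arrays. With 4HPR, 1037 higher in liver became 1671 after quantile normalization and 1964 with median-centred arrays, and 2778 higher in lung became 1544 with median-centred arrays. So with median-centred arrays more probe sets were higher in liver than in lung with each agent, while untreated arrays kept more on the lung side (1693 and 1820). Leaving out 1 array at a time gave 1081 to 1177 higher in untreated liver and 2297 to 2579 higher in lung, and 115 to 274 probe sets whose organ difference changed with the agent, against 176.

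Of 267 named genes tested, 237 passed, and no direction among those that passed was reversed. Calls lost were 10 with median-centred arrays, 6 after quantile normalization, 8 in a fit with mammary gland, 5 in a fit of all liver and lung arrays, 2 without the filter on low values, 50 with treat, 5 with averaged probe sets and 9 when an array was left out. A pseudocount 4 times larger changed 0 calls. Residuals of arrays with the same number correlated at -0.03, -0.03 and -0.06. For arrays with different numbers the values ran from -0.02 to 0.05. Organs of 1 rat need not share residuals, so these values cannot tell whether the numbers pair the arrays. With array number as a block, 1063 and 2304 probe sets passed, 120 for the change with the agent, and among named genes the calls of Cd14, Fabp3, Fabp6, Foxa2, Myh3 and Pgk1 were lost and no other changed. Signals near the added constant, as for lung transcripts in liver and the reverse, give understated folds.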
